A study of Arabidopsis thaliana with 9 samples.

Results

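The miR157 family was described across 3 genotypes of Arabidopsis thaliana from all rows whose name is ath-miR157 followed by a letter, which gave 7 of the 427 mature miRNA entries counted. The 7 entries are the 5p and 3p arms of 3 hairpins (ath-miR157a-5p, ath-miR157a-3p, ath-miR157b-5p, ath-miR157b-3p, ath-miR157c-5p and ath-miR157c-3p from MIR157a, MIR157b and MIR157c) and ath-miR157d, the single annotated arm of MIR157d. They hold 4 distinct mature sequences, and the prefix ath is left out from here on. All 7 had counts in each of the 9 libraries and passed the filter on low counts. Small RNA was sequenced from leaves of plants aged 3 weeks, with 3 libraries of each genotype: wild type (WT) and the mutant lines se-2 and chr2. The se-2 plants carry a mutant allele of SERRATE (SE), a zinc finger protein that assists the nuclease DCL1 in cutting primary miRNA transcripts. The chr2 plants are mutant in CHR2, also called BRM, a SWI/SNF-type chromatin remodelling ATPase, and the study's title frames CHR2 as acting on primary miRNA transcripts together with SE. The labels give only the names of the lines, no accession background and no treatment, and they do not say whether the 3 libraries of a genotype came from separate plants. The p-values therefore measure the spread between these libraries, which may be technical. The extraction protocol calls the plants adult, no juvenile plants or series of ages were analysed here, and miRNA counts do not measure the transcripts of SE, CHR2 or leaf marker genes, so neither the phase nor the genotypes nor the tissue could be checked.

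The miR156 and miR157 families guide Argonaute proteins to transcripts of SQUAMOSA PROMOTER BINDING PROTEIN-LIKE (SPL) transcription factors. They are abundant in young seedlings and decline as the shoot matures, which frees the SPL factors to promote adult leaf traits, flowering and expression of miR172. Each hairpin is cut into a duplex of a guide strand, here the 5p arm, which is kept in Argonaute, and a passenger strand, here the 3p arm, which is mostly discarded.

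The mature sequences are shown first because they decide which entries are separate measurements. They come from RefSeq's annotation of TAIR10.1, in which all 7 names were found, and capitals mark the seed, bases 2 to 8 from the 5′ end. The guide of MIR157a, MIR157b and MIR157c is a single sequence of 21 nt, and miR157d, of 20 nt, is that sequence from base 2 on. A read of miR157d therefore has the same letters as a guide of the other hairpins that lacks its first base. miR156a-5p, the best known guide of the sister family, is given for comparison and shares its seed with miR157d.
miR157a-5p, miR157b-5p and miR157c-5p: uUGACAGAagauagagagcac
miR157d: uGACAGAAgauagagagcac
miR156a-5p: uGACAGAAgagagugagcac
miR157a-3p and miR157b-3p: gCUCUCUAgccuucugucauc
miR157c-3p: gCUCUCUAuacuucugucacc
Counted from the 5′ end, miR157c-3p differs from miR157a-3p by G9U, C10A and U20C, outside the seed that both share. Reads of the passenger arm thus separate MIR157c from MIR157a and MIR157b, which reads of the guide do not. miR157d differs from miR156a-5p by G11U and U14A.

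The precursors differ in the distance between their arms, and MIR157a (whole), MIR157c (bases 21 to 193 of 217) and MIR157d (bases 21 to 221 of 221) are printed below with annotated arms in capitals. MIR157a lies at chr1:24913202-24913299 on the minus strand and MIR157b at chr1:24921086-24921217 on the plus strand, 7786 bases apart with 0 annotated genes between them. MIR157c lies at chr3:6244500-6244716 on the minus strand and MIR157d at chr1:18026811-18027031 on the minus strand. The arms are 50 bases apart in MIR157a and MIR157b and 125 bases apart in MIR157c. The predicted minimum free energies of the annotated precursors were -46.4 kcal/mol for MIR157a, -55.3 for MIR157b, -75.7 for MIR157c and -74.2 for MIR157d.
MIR157a: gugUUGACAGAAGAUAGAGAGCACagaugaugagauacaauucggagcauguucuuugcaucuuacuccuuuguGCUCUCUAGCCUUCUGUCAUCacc
MIR157c: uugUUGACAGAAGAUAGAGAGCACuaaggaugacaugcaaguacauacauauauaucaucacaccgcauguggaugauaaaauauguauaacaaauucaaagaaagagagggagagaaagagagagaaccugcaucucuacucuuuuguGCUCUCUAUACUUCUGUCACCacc
MIR157d: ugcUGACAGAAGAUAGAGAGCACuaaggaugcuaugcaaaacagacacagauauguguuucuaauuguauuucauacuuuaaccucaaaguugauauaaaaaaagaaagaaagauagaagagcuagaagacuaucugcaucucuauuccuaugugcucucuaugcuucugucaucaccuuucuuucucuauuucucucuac
No 3p arm is annotated in MIR157d. The stretch from base 175 to base 195, numbered on the whole precursor and not on the stretch printed, matched miR157a-3p, and likewise miR157c-3p, with 2 mismatches over 21 bases, but the count files hold no entry for it.

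**Figure D1:**
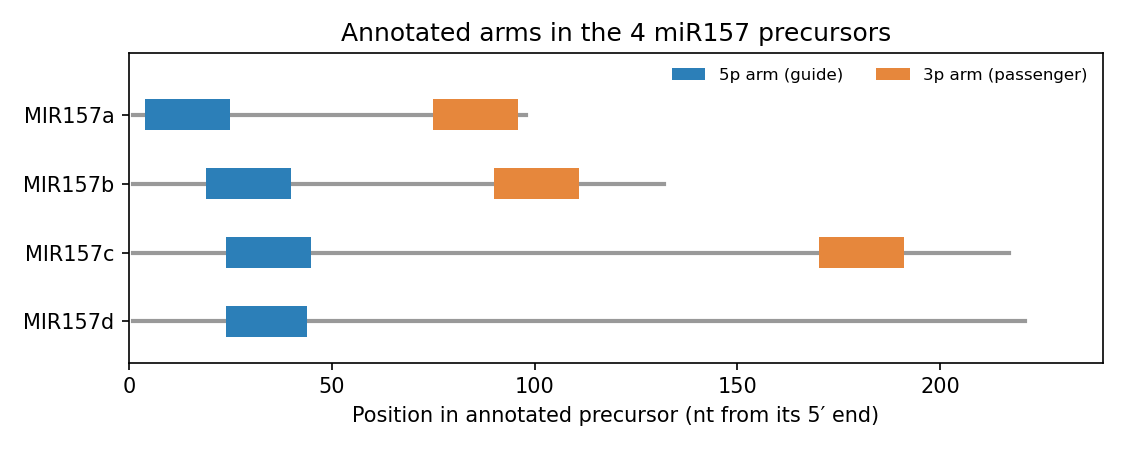
Map of the 4 annotated precursors to scale, with position in nt from the 5′ end of the precursor on the x axis, the guide (5p) arm in blue and the annotated passenger (3p) arm in orange. The arms of MIR157a and MIR157b are 50 bases apart and those of MIR157c 125 bases apart, and MIR157d has no annotated passenger arm.

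The guide can pair with most SPL transcripts on the list examined. Of 11 SPL genes listed as targets, 10 held a site with at most 4 mismatches to miR157a-5p in their longest annotated transcript, 7 in the coding sequence and 3 in the 3′ UTR. SPL9, which promotes adult leaf traits, held this site in its coding sequence at chr2:17589066-17589086 on the plus strand, with its single mismatch opposite base 12 of the guide.
SPL9 site: gugcucucucucuucugucaa
SPL2, SPL10, SPL11 and SPL15 also had 1 mismatch, at the same base. SPL3, a floral promoter, was the exception, with 5 mismatches to miR157a-5p, 2 of them G:U pairs, and 2 mismatches to miR156a-5p. None of the 6 SPL genes listed as lacking a site held one, their best stretch having at least 7 mismatches. Across all 27444 protein-coding genes scanned, 31 (0.113%) held such a site, 21 of them outside both lists. A match of letters is a description, and SPL transcripts were not measured here.

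Total counts in miRNA entries were 1280294 to 1588242 in WT, 637283 to 908635 in chr2 and 130482 to 195415 in se-2. These totals cover miRNA entries only, so sequencing depth itself is unknown, and the levels below are counts scaled to a common library size (CPM, from TMM-scaled libraries), a scaling that assumes most entries are unchanged. Fold changes are thus relative to the bulk of the miRNAs. Tests used edgeR's quasi-likelihood test in a single fit of all 9 libraries, with p-values adjusted by Benjamini-Hochberg over 270 tested entries and called under 0.05. Each mutant was compared with the same 3 WT libraries, and the comparison of the mutants with each other reuses both groups. In se-2 against WT 42.2% of tested entries were called higher and 30.4% lower, and in chr2 against se-2 33.0% and 47.4%. By these calls most entries changed in both comparisons, so the assumption behind TMM was not met there.

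All 7 miR157 entries rose in chr2 and fell in se-2, while 10.4% of all tested entries rose in chr2 and 30.4% fell in se-2. In chr2 against se-2 all 7 were higher, against 33.0% of all tested entries. In each of the 3 comparisons the 3 libraries of one genotype lay apart from the 3 of the other for every miR157 entry. How many of all tested entries separated in this way was not counted, so the separation is not read as particular to the family. Because of the shared sequences, the 7 entries are 6 distinct count rows (5 once the passengers of MIR157a and MIR157b, which differ by 1 count in 1 library, are counted once). Under TMM the changes ranged from 1.68-fold to 2.51-fold in chr2 and from 2.52-fold to 11.3-fold in se-2. The se-2 sizes depend on the scaling: under the planned reference scaling, described with the plot of scalings, the log2 change was -2.70 for miR157a-5p (-1.33 under TMM) and -4.86 for miR157c-3p (-3.49 under TMM).

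The guide arms, the strands that direct SPL silencing, made up most of the family. miR157a-5p and miR157b-5p had the same counts in every library, with 16122, 17414 and 15284 CPM in WT, 7528, 6032 and 5862 CPM in se-2 and 25551, 26826 and 36316 CPM in chr2. Every chr2 library was above every WT library and every WT library above every se-2 library. miR157a-5p rose 1.82-fold in chr2 (log2 0.86 ± 0.19 SE, adjusted p = 0.000628, edgeR) and fell 2.52-fold in se-2 (log2 -1.33 ± 0.19 SE, adjusted p = 4.01e-07, edgeR). By mean CPM it ranked 15 of 270 tested entries in WT, and its rank was 26 in se-2 and 10 in chr2.

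miR157c-5p, annotated with the same sequence, had 17656, 18952 and 16762 CPM in WT, 8133, 6468 and 6414 CPM in se-2 and 29918, 30480 and 39812 CPM in chr2. The order of the genotypes was again free of overlap. It rose 1.88-fold in chr2 (log2 0.91 ± 0.18 SE, adjusted p = 0.000294, edgeR) and fell 2.54-fold in se-2 (log2 -1.35 ± 0.19 SE, adjusted p = 2.45e-07, edgeR).

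The miR157c-5p entry held more counts than miR157a-5p in every library, although the mature sequences are identical. In the precursors the 3 bases after the guide are aga in MIR157a and MIR157b and uaa in MIR157c, and the sources used here do not say whether reads that run past the annotated end were counted. The excess was 2044, 1798 and 2062 counts in WT, 83, 75 and 108 counts in se-2 and 3183, 3734 and 1948 counts in chr2. As a share of the miR157a-5p count it was 9.34% ± 0.45 (SD, n = 3) in WT, 13.4% ± 3.74 in chr2 and 8.23% ± 1.11 in se-2. The chr2 libraries, at 17.1%, 13.6% and 9.63%, overlapped those of WT (exact two-sided permutation p = 0.2).

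miR157d, the shortened form of the guide, was the least abundant entry, with 830, 908 and 866 CPM in WT, 189, 81.4 and 123 CPM in se-2 and 1357, 1276 and 1744 CPM in chr2. The se-2 values rest on 26, 14 and 24 counts. It rose 1.68-fold in chr2 (log2 0.75 ± 0.21 SE, adjusted p = 0.00582, edgeR) and fell 6.76-fold in se-2 (log2 -2.76 ± 0.26 SE, adjusted p = 2.44e-10, edgeR). This was the 1 entry whose call in chr2 was lost under another scaling, the reference scaling without miR403 described with the plot of scalings, where it was 0.38 on the log2 scale (adjusted p = 0.156, edgeR).

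Of the passenger arms, miR157c-3p was the more abundant in WT, with 6763, 5603 and 6893 CPM. It had 13287, 11115 and 11285 CPM in chr2 and 780, 412.6 and 532 CPM in se-2, the latter from 107, 71 and 104 counts. The se-2 libraries thus lay far below both other genotypes. It rose 1.85-fold in chr2 (log2 0.89 ± 0.21 SE, adjusted p = 0.00113, edgeR) and fell 11.3-fold in se-2 (log2 -3.49 ± 0.24 SE, adjusted p = 2.68e-13, edgeR).

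miR157a-3p, whose counts differed from those of miR157b-3p in a single library and there by 1 count, had 1541, 1281 and 1554 CPM in WT, 445, 320 and 409 CPM in se-2 and 4371, 3024 and 3587 CPM in chr2. The lowest chr2 library lay well above the highest WT library. It rose 2.51-fold in chr2 (log2 1.33 ± 0.20 SE, adjusted p = 8.98e-06, edgeR) and fell 3.74-fold in se-2 (log2 -1.90 ± 0.23 SE, adjusted p = 1.74e-08, edgeR).

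**Figure D2:**
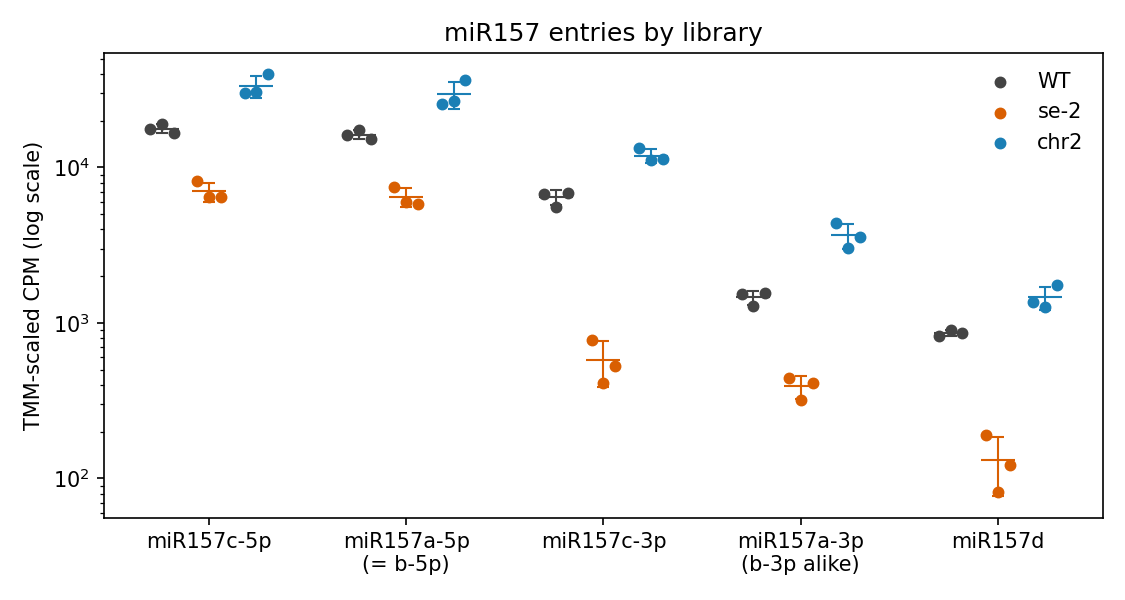
TMM-scaled CPM of the miR157 entries (log axis) in each library of WT (grey), se-2 (orange) and chr2 (blue), with a horizontal line at the mean and bars of ± SD (n = 3). For every entry the 3 chr2 libraries lie above the 3 WT libraries and these above the 3 se-2 libraries; miR157c-3p goes from a mean of 6420 CPM in WT to 575 in se-2.

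In chr2 against se-2 the passenger of MIR157c differed most and the guides of 21 nt least. miR157c-3p was 20.9-fold higher in chr2 (log2 4.38 ± 0.24 SE, adjusted p = 4.25e-15, edgeR) and miR157a-5p 4.57-fold (log2 2.19 ± 0.20 SE, adjusted p = 5.81e-11, edgeR). The other entries lay between these, with miR157d at 11.3-fold, miR157a-3p at 9.38-fold and miR157c-5p at 4.77-fold.

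Within a library, guide and passenger counts can be compared without any scaling between libraries. The 3p percentage was taken as the counts of miR157a-3p and miR157c-3p over the same plus the counts of miR157c-5p, the guide entry with the most counts. Passenger reads were 32.0%, 26.6% and 33.5% of the family's counts in WT, 37.1%, 31.7% and 27.2% in chr2 and 13.1%, 10.2% and 12.8% in se-2. The exact 95% binomial intervals, which cover counting error only, were 11.3 to 15.1%, 8.54 to 12% and 11.1 to 14.6% for the 3 se-2 libraries. The passenger share was lower in se-2, and its libraries did not overlap those of WT (exact two-sided permutation p = 0.1, the smallest that 3 against 3 libraries allow). WT and chr2 overlapped (exact two-sided permutation p = 0.8).

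A paired fit of the 2 arms over 57 hairpins gave the same quantity for single hairpins, with library as a block. For MIR157c the passenger fell 4.49-fold relative to the guide in se-2 (log2 -2.17 ± 0.27 SE, adjusted p = 7.85e-13, edgeR), while 26.3% of the hairpins fell in this ratio. For MIR157a the ratio was -0.56 on the log2 scale in se-2 (± 0.27 SE, adjusted p = 0.0715, edgeR), not called. Without WT replicate 2, the WT library with the lowest passenger share, it was -0.71 and called (adjusted p = 0.043, edgeR). In chr2 against WT neither ratio was called, among 14.0% called in either direction over the hairpins. The log2 ratio was 0.47 ± 0.25 SE for MIR157a (adjusted p = 0.195, edgeR) and -0.01 ± 0.25 SE for MIR157c (adjusted p = 0.984, edgeR). In chr2 against se-2 both rose, MIR157a 2.05-fold (adjusted p = 0.000589, edgeR) and MIR157c 4.46-fold (adjusted p = 4.83e-13, edgeR), where 29.8% of the hairpins rose. The guide counts are shared between the hairpins, so these ratios set a passenger of 1 hairpin against guides of several. Summing the passengers of MIR157a and MIR157c over miR157c-5p, a form chosen after seeing the data, gave log2 -1.70 in se-2 (adjusted p = 3.96e-09, edgeR) and 0.08 in chr2 (adjusted p = 0.984, edgeR) against WT.

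The 2 passenger sequences allow the hairpins themselves to be compared. miR157c-3p was 81.4%, 81.4% and 81.6% of both passenger counts in WT, 75.2%, 78.6% and 75.9% in chr2 and 63.7%, 56.3% and 56.5% in se-2. The WT libraries were nearly equal, and the 3 genotypes did not overlap. In se-2 the exact 95% intervals were wider, at 55.9 to 71.0%, 47.2 to 65.2% and 49.0 to 63.8%, from 168, 126 and 184 passenger counts. The exact two-sided permutation p was 0.1 for each pair of genotypes, the smallest possible.

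In a paired fit over 30 same-arm pairs within families, miR157c-3p fell 3.07-fold relative to miR157a-3p in se-2 (log2 -1.62 ± 0.25 SE, adjusted p = 9.51e-07, edgeR), where 26.7% of the pairs fell. In chr2 the ratio to miR157a-3p was -0.43 on the log2 scale (± 0.21 SE, adjusted p = 0.108, edgeR), not called, among 33.3% of the pairs called in either direction. With only chr2 and WT in the fit the adjusted p was 0.0248 at -0.43. In chr2 against se-2 the ratio rose 2.28-fold (log2 1.19 ± 0.25 SE, adjusted p = 9.01e-05, edgeR), where 30.0% of the pairs rose. The passenger of MIR157c, the hairpin with 125 bases between its arms, was thus lowered more in se-2 than that of MIR157a and MIR157b, with 50 bases. Whether the distance bears on this was not tested, and it cannot be told apart from the other differences in sequence and locus between these hairpins.

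miR157d moved relative to the longer guide as well. Its counts were 5.15%, 5.21% and 5.67% of the miR157a-5p counts in WT, 5.31%, 4.76% and 4.80% in chr2 and 2.52%, 1.35% and 2.09% in se-2. The se-2 libraries lay apart from the rest, while WT and chr2 overlapped. In the same paired fit miR157d fell 2.70-fold relative to miR157a-5p in se-2 (log2 -1.43 ± 0.25 SE, adjusted p = 6.57e-06, edgeR) and was at log2 -0.11 ± 0.19 SE in chr2 (adjusted p = 0.694, edgeR).

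The balance between the guides of miR157 and of the sister family differed between all 3 genotypes. miR157a-5p had 1.61, 1.62 and 1.59 times the count of miR156a-5p in WT, 2.36, 2.36 and 2.39 times in chr2 and 0.801, 0.748 and 0.840 times in se-2. The replicates lay close together and the genotypes far apart (exact two-sided permutation p = 0.1 for each pair of genotypes, the smallest possible). miR157a-5p was therefore the more abundant of the 2 guides in WT and chr2 and the less abundant in se-2, on a measure that no scaling between libraries alters. miR156a-5p was chosen as the comparison after its values were seen, so the permutation test of this ratio is not an independent one. Against miR156d-5p, the miR156 guide entry with the most counts, the mean ratio was 1.19 ± 0.02 (SD, n = 3) in WT, 2.35 ± 0.02 in chr2 and 0.597 ± 0.03 in se-2. Mean counts of miR156d-5p and miR156a-5p were 17672 and 13094 in WT, 1797 and 1348 in se-2, but 9394 and 9329 in chr2. The larger step from WT to chr2 in this ratio thus goes with the miR156d-5p entry losing its excess over miR156a-5p. Whether the 2 entries share reads was not tested, so the second ratio is no separate check.

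**Figure D3:**
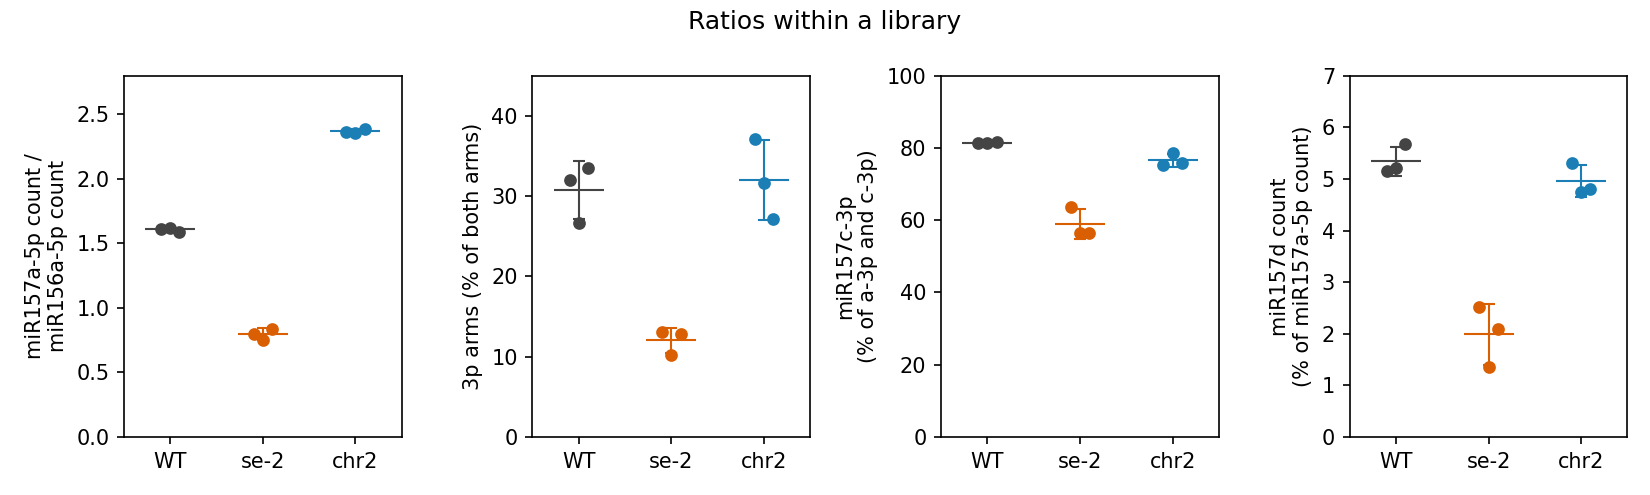
Ratios of counts within each library for WT (grey), se-2 (orange) and chr2 (blue), with a horizontal line at the mean and bars of ± SD (n = 3). From left to right the y axes give miR157a-5p over miR156a-5p, the percent of passenger (3p) counts, miR157c-3p as a percent of both passenger counts, and miR157d as a percent of miR157a-5p; se-2 lies apart from WT in each panel, and chr2 lies apart from WT in the first and the third.

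As a share of all miRNA counts, with each mature sequence counted once, the family made up 5.05%, 4.87% and 4.50% in the WT libraries, 2.91%, 2.16% and 2.22% in those of se-2 and 8.46%, 9.90% and 10.3% in those of chr2. The chr2 mean was 1.99 times that of WT and the WT mean 1.98 times that of se-2, without overlap (exact permutation test, two-sided p = 0.1 in both comparisons, the smallest possible). miR156a-5p alone was 1.94% ± 0.17 (SD, n = 3) in WT, 2.56% ± 0.46 in chr2 and 2.61% ± 0.41 in se-2. A share of miRNA counts falls when other miRNAs rise, so it shows the place of the family among the miRNAs and not its amount in a leaf.

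Of the other miRNAs of vegetative phase change, miR156 entries were called in chr2 at about the share of all tested entries. Of 11 tested miR156 entries 1 rose, 2 fell and 8 were not called, with a median log2 change of 0.30, where 10.4% of all tested entries rose and 19.6% fell, and 0 of 5 tested miR172 entries were called (edgeR, median -0.13). For miR172, unadjusted p-values under 0.05 were also 0 in number, and DESeq2 and limma-voom called 0. With DESeq2 size factors in edgeR 5 miR156 entries rose, as did 46 of the 270 tested entries. Without miR403 in the reference 3 miR156 and 2 miR172 entries fell, as did 105 of the 270 tested entries. By their counts miR156a-5p, miR156b-5p and miR156e are not separate measurements, with WT means of 13094, 13095 and 13070 counts. miR156d-5p, with a mean of 17672 counts in WT, was close to miR156a-5p in chr2 (9394 against 9329). Whether it shares reads with these entries was not tested, so it may not be a separate measurement either. The 6 distinct miR157 rows had a median of 0.90 and all 270 tested entries a median of -0.15. miR156b-3p, the miR156 passenger arm with the highest mean over all libraries, had 322 ± 38.4 CPM in WT and 402 ± 22.3 CPM in chr2 (SD, n = 3, log2 0.32, adjusted p = 0.233, edgeR). The miR156 guides were at log2 0.30 for miR156a-5p (adjusted p = 0.241, edgeR) and -0.12 for miR156d-5p (adjusted p = 0.685, edgeR). miR156c-3p, a passenger arm, rose 1.65-fold from 179 ± 26 to 296 ± 31.3 CPM (SD, n = 3, adjusted p = 0.00922, edgeR). miR156h, a guide that differs from miR157d by U11A, fell 2.23-fold (adjusted p = 0.00104, edgeR). miR156d-3p, also a passenger, fell 35.2-fold from 527 ± 5.04 to 15 ± 2.61 CPM (SD, n = 3, adjusted p = 8.48e-16, edgeR).

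In se-2, of the 11 miR156 entries 1 rose, 3 fell and 7 were not called (median log2 -0.33), where 42.2% of all tested entries rose and 30.4% fell, against a median of -1.90 for miR157 and 0.11 for all tested entries. Under the 3 reference scalings 10, 10 and 11 of the miR156 entries fell, as did 161, 141 and 191 of the 270 tested entries. miR156a-5p was at log2 -0.31 (adjusted p = 0.142, edgeR), with 10115 ± 572 CPM in WT and 8148 ± 1215 in se-2 (SD, n = 3). Of 5 tested miR172 entries, whose targets are AP2-like repressors of flowering and of adult traits, 4 rose under TMM scaling (median log2 0.95), but 0 rose under each of the 3 reference scalings in edgeR (0 also at an unadjusted p under 0.05), where 1, 0 and 5 fell; DESeq2 called 2. miR172b-3p, for example, had 1850 ± 181 CPM in WT and 3544 ± 1172 in se-2 (SD, n = 3, log2 0.94, adjusted p = 0.00104, edgeR). In chr2 against se-2, 4 miR156 entries were higher and 2 lower, and 4 miR172 entries were lower under TMM, where 33.0% of all tested entries were higher and 47.4% lower. The 4 miR156 entries include miR156a-5p, miR156b-5p and miR156e, which have nearly the same counts. The 4 miR172 entries are the same 4 that rose in se-2 against WT under TMM, and they likewise are not all separate measurements. With total counts 4 miR172 entries were lower and with DESeq2 size factors in edgeR 2, as were 128 and 102 of all tested entries. limma-voom called 4 lower and DESeq2 2, against 130 and 98 of all tested entries. Under the 3 reference scalings in edgeR 0 miR172 entries were lower (0 also at an unadjusted p under 0.05), and 0, 0 and 3 were higher.

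**Figure D4:**
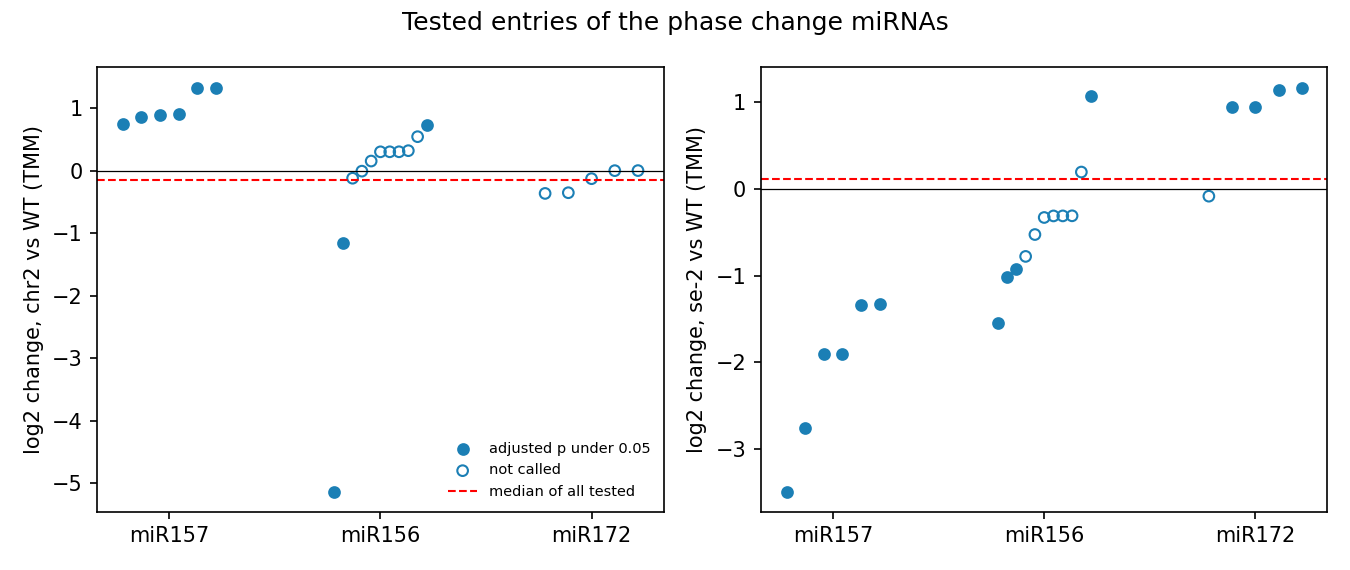
log2 change of each tested entry of the miR157, miR156 and miR172 families under TMM scaling in chr2 against WT (left) and se-2 against WT (right), with filled points for an adjusted p under 0.05 and a dashed line at the median of all 270 tested entries. All 6 distinct miR157 rows lie above 0 in chr2 and below 0 in se-2, while miR156 entries lie on both sides. In se-2, 4 of 5 miR172 entries lie above 0, but 0 miR172 entries were called higher under the reference scalings. Those 4 include entries with nearly the same counts.

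The direction of the miR157 changes did not depend on how the libraries were scaled. Reference scaling sets library sizes from the summed counts of late annotation entries, with family numbers of 5000 and above, and of early entries later questioned as miRNAs. It took in miR403, a conserved miRNA, so a form without miR403 was added after seeing the data. Against TMM these choices shifted the log2 changes of single entries by a median of -0.34 to 0.20 in chr2 and of -2.36 to 0.14 in se-2. For miR157a-5p the log2 change in chr2 was 0.50 to 1.04 and in se-2 -3.72 to -1.18 over these scalings. For miR157a-3p it was 0.95 to 1.52 in chr2 and -4.29 to -1.76 in se-2. In se-2 it was -5.90 to -3.35 for miR157c-3p, -5.14 to -2.61 for miR157d and -3.73 to -1.20 for miR157c-5p. The sizes of the changes in se-2 thus depend on the scaling, and the ratios within a library do not.

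**Figure D5:**
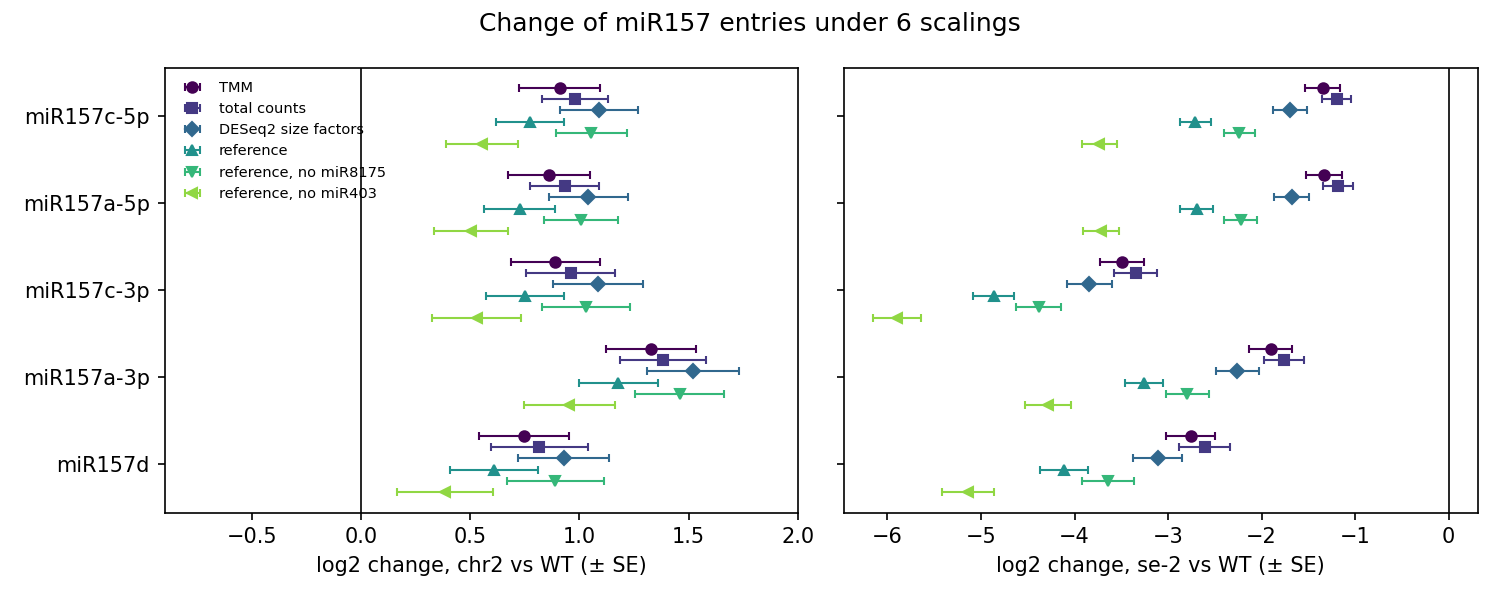
log2 change (± SE) of 5 miR157 entries in chr2 against WT (left) and se-2 against WT (right) under TMM and 5 other scalings, given by symbol and colour, with a vertical line at 0. All points lie above 0 on the left and below 0 on the right; miR157a-3p has the highest point of each scaling in chr2, and miR157c-3p the lowest in se-2.

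Among tested entries outside the family, 1 for each mature sequence, those with the pattern most like miR157a-5p over the 9 libraries, by Pearson's r of log2(CPM + 1), were miR164c-3p (r = 0.96), miR164b-5p (0.957), miR169b-3p (0.926), miR164b-3p (0.925) and miR156c-3p (0.919). For miR157a-3p they were miR164b-5p (r = 0.966), miR164c-3p (0.95), miR156c-3p (0.945), miR164b-3p (0.931) and miR167a-3p (0.912). These values describe 9 libraries in 3 genotypes and share the scaling, so they mostly state that the genotypes came in the same order. miR164b-5p, a guide against CUC boundary genes, had mean levels of 281 CPM in WT, 56.8 CPM in se-2 and 563 CPM in chr2. miR164c-3p was at 20.2 CPM in WT and 36.5 in chr2, with 0 counts in all se-2 libraries. With total counts of only 130482 to 195415 in se-2, such levels lie near the floor. Depth thus limits both the 0 counts and the r of miR164c-3p.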

How the data were processed

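The values deposited by the authors are whole-number read counts for 427 mature miRNA entries in each of 9 libraries, with no normalization. Per the labels' protocols, small RNAs of 19 to 24 nt were isolated from a gel before adapter ligation and amplification. Bowtie 1.1.2 and the TAIR10 genome were used, per the submitters' processing notes. How reads were counted, against which annotation and how reads with several matches were handled is not given in the sources used here. miR157a-5p and miR157b-5p, which share a sequence, have equal counts, so their reads appear to have been given to both, while miR157c-5p, with the same sequence, has more.

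Rows with the same counts in every library were collapsed, a step added after the tests were planned, which left 368 of 384 detected entries, and filterByExpr left 270. The main test was edgeR 4.0.16 (robust quasi-likelihood, TMM, Benjamini-Hochberg, limit 0.05; limma 3.58.1, R 4.3.3) with genotype as the only term. Arm ratios and same-arm ratios were fitted on paired counts with library as a block, for pairs with a mean count of at least 20 for the sum and 5 for the lesser member. Alternatives covered scaling, DESeq2 1.42.0, limma-voom, filters and the libraries in the fit. Scripts were tested on simulated data. Hairpin energies came from ViennaRNA 2.7.2. Named besides the family were the most abundant miR156 and miR172 entry of each named arm (miR156d-5p, miR156b-3p and miR172b-3p), those called in chr2 against WT, and the 5 entries most like miR157a-3p and miR157a-5p. miR156a-5p, the comparison guide of the sister family, falls outside this rule and was chosen after its values were seen. Further miR156 and miR172 entries were named only to show which have nearly the same counts. Members and lists were chosen with earlier results of these data known. Chi-square divided by its degrees of freedom was 3.35 to 106 between libraries of a genotype, so none was a copy of another.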

Additional observations from a re-analysis of the deposited data

How the results depend on the processing

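The count of 7 miR157 entries called was unchanged in every alternative for se-2 against WT and for chr2 against se-2, and was 6 or 7 over 18 alternatives for chr2 against WT. No value of a miR157 entry or ratio that was called reversed its direction. With only the 2 groups in the fit, 2 uncalled ratios were called: the arm ratio of MIR157a in se-2 against WT (-0.56, adjusted p = 0.0444, edgeR) and miR157c-3p over miR157a-3p in chr2 against WT (-0.43, adjusted p = 0.0248, edgeR). Leaving out 1 library at a time, the arm ratio of MIR157a in se-2 ranged from -0.71 to -0.47. With shared sequences counted for each entry, the percent of counts differed by -3.37 points for se-2 minus WT (-2.38 with each sequence counted once) and by 8.51 for chr2 minus se-2 (7.12 likewise). With a replicate block, 7 entries were called in each comparison and no miR157 call changed (miR157a-5p 0.86 in chr2 and -1.33 in se-2). Same-numbered libraries did not deviate together (r from -0.23 to 0.0956 over 9 pairs, none above 0.1, and 0 of 9 libraries closest to libraries of its own number). No pairing by number was thus seen, but deviations from means of 3 libraries cannot exclude it. Over all tested entries, lower calls in chr2 against WT ranged from 29 (without chr2 replicate 3) to 105 (reference scaling without miR403), against 53, and higher calls from 14 (reference scaling without miR403) to 46 (DESeq2 size factors), against 28; reference scaling called 66 higher and 161 lower in se-2 against WT (TMM 114 and 82), and 139 higher and 74 lower in chr2 against se-2 (TMM 89 and 128). Without miR8175 these were 75 and 141, and 134 and 83; without miR403, 16 and 191, and 160 and 31. With 1 entry per mature sequence, 85 were lower in chr2 against se-2. Depth limits miR157d and the passenger arms in se-2, at 14 to 107 counts a library.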
